A study of Mus musculus with 8 samples.

Results

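The granzyme and Ccl5 cells of the acute phase were 1623 T cells that carried transcripts of a granzyme, a killing enzyme, together with the chemokine Ccl5. A cell barcode was counted among them where it had at least 1 UMI (unique molecular identifier, 1 counted transcript molecule) of Gzmk or Gzmb and at least 2 UMIs of Ccl5. The members were chosen by these measured UMI counts alone, so the levels of Gzmk, Gzmb and Ccl5 in them are no finding. The rule picked 1053 of 10313 barcodes from the brain and 570 of 9270 from the spinal cord at day 14, which was 7.53% of the 21551 barcodes kept in the whole series. Barcodes were kept with at least 500 detected genes and at most 10% of UMIs from mitochondrial genes.

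All cells came from Foxp3-Cre-YFP mice, in which regulatory T cells carry a yellow fluorescent protein, in which experimental autoimmune encephalomyelitis (EAE) had been induced as a model of human multiple sclerosis. The study compared acute disease (day 14) with chronic disease (day 50) in brain freed of its meninges and in spinal cord. Each of the 4 libraries held sorted CD4 T cells that were CD44+, TCRβ+, CD11b- and negative for Foxp3-YFP, so every group shared the disease, the genotype and the gate, and no healthy or untreated library was used here. Each tissue and day was a single library, the labels do not say how many mice were pooled in it, and cells of a library are not replicates, so no difference between groups has a replicate check.

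Granzymes are serine proteases that perforin helps deliver into a target cell. Most granzyme-bearing lymphocytes are CD8 T cells or natural killer (NK) cells, but CD4 T cells can take on a cytotoxic program. That program is classically tied to the T-box factors Eomes and T-bet. Ccl5 (RANTES) is a chemokine of effector and memory T cells that attracts other leukocytes. In EAE the best described CD4 effector cells are Th1 cells, which make interferon gamma, and Th17 cells, which make interleukin 17.

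Levels are given as CPM, the UMIs of a gene summed over a set of cells and scaled to the usual common total of UMIs, with no correction for gene length. Ratios are log2 of the members' CPM over that of the other kept barcodes of the same library, with an exact conditional binomial 95% interval. Intervals cover counting error only, since UMIs of 1 cell are not independent. A gene was called higher or lower where the ratio was at least 1.5-fold and its interval left out 1. The members' median depth was 4307 UMIs against 3972 for the others in the brain, and 4578 against 4939.5 in the spinal cord. No doublet caller was run, and 4.65% of the brain members and 1.40% of the spinal cord members lay above 3 times their library's median depth, against 2.39% and 0.816% of the others. The 2 day 14 libraries shared 33 barcodes, of which 6 were brain members and 0 were members in both. No cell type that should lack these genes was present to measure free RNA.

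The members made up 10.2% of the brain barcodes (exact Clopper-Pearson 95% interval 9.63 to 10.8) and 6.15% of the spinal cord barcodes (5.67 to 6.66). Thinning each barcode to 2000 UMIs, which left out 1163 brain and 142 spinal cord barcodes, gave 6.55% and 3.54%. Under the same rule the chronic phase libraries held 56 of 348 brain barcodes (16.1%, 12.4 to 20.4) and 403 of 1620 spinal cord barcodes (24.9%, 22.8 to 27.1), or 13.6% and 19.4% after thinning. The share was therefore higher in brain than in spinal cord at day 14, and higher at day 50 than at day 14 in both tissues, at both depths. The spinal cord exceeded the brain at day 50 by point estimate, while the thinned intervals of the small brain library (9.61 to 18.5) and the spinal cord (17.4 to 21.5) overlapped.

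**Figure D1:**
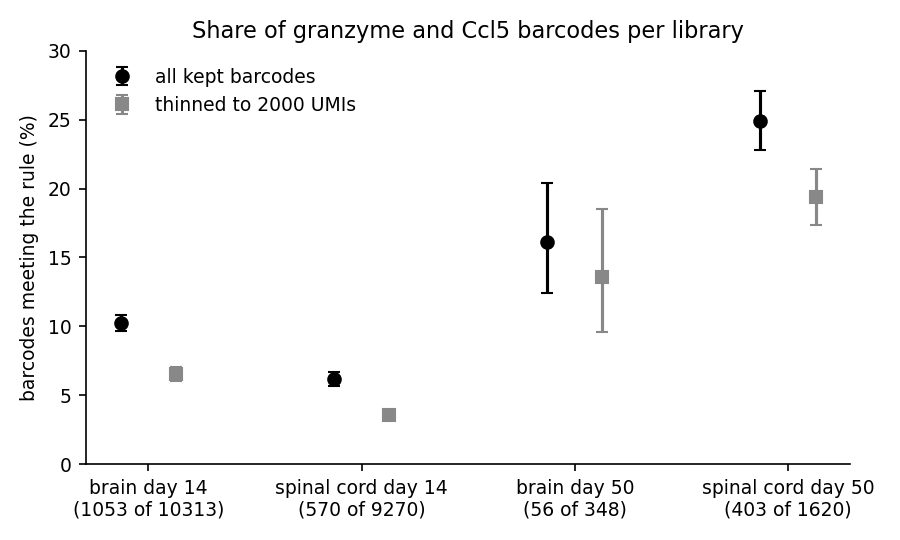
Share of barcodes that met the rule (vertical axis, percent) in each library (horizontal axis, with the number of barcodes that met it), for all kept barcodes (black circles) and for barcodes thinned to 2000 UMIs (grey squares). Bars are exact 95% intervals for counting error, and both day 50 libraries sit above both day 14 libraries, 16.1% and 24.9% against 10.2% and 6.15%.

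The 3 genes that chose the cells are described without a test. Ccl5 (chromosome 11, 83525778 to 83530518, GRCm38.p6) stood at 8142 CPM in brain members and 599 CPM in the other brain barcodes, and at 7445 against 468 CPM in the spinal cord. The median member carried 24 Ccl5 UMIs in the brain and 25 in the spinal cord, far from the threshold of 2. Gzmk, a granzyme often found in less differentiated T cells, stood at 415 against 10.1 CPM in the brain and 369 against 4.08 CPM in the spinal cord. Gzmb, the main apoptosis-inducing granzyme, stood at 347 against 20.5 CPM and at 295 against 15.5 CPM.

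The granzyme side of the rule was much closer to its threshold than the Ccl5 side. Of the members, 34.0% in the brain and 35.1% in the spinal cord had a single granzyme UMI. In the brain these single-UMI members stood at 19.1 CPM for Eomes, 49.9 for Igkc, 65.0 for Cd27 and 589 for Ly6c2. Brain members with at least 2 granzyme and 4 Ccl5 UMIs stood at 57.7, 176, 133 and 551 CPM. The averages over all members given below for Eomes, Igkc and Cd27 therefore do not describe each member alike. Just inside the Ccl5 threshold, with exactly 2 Ccl5 UMIs, were 64 brain and 36 spinal cord members. Just outside, with a granzyme UMI and exactly 1 Ccl5 UMI, were 90 and 65 barcodes. In the brain Ly6c2 stood at 556.9 CPM just inside and 399 CPM just outside, Eomes at 19.1 and 7.99 CPM, and Cd27 at 66.9 and 59.9 CPM. In the spinal cord the same genes stood at 660.0 and 374 CPM, 9.23 and 7.80 CPM, and 13.8 and 36.4 CPM. The spinal cord values just inside rest on 2 Eomes UMIs and 3 Cd27 UMIs over 36 cells, at or below the 3-count floor of 13.8 CPM, so no order can be read from them.

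The labelled cell type was checked against defining markers. A transcript of the T cell receptor or CD3 was found in 100% of the members of both libraries, and Cd4 in 42.2% of brain members and 53.0% of spinal cord members, against 44.2% and 65.0% of the others. Cd8a, which defines CD8 T cells, had 0 UMIs in members of both libraries, which allows a level of up to 0.554 CPM in the brain and 0.956 CPM in the spinal cord. Foxp3 and Lrrc32 of regulatory T cells, and Ncr1, Klra4, Klra7, Klra8 and Klra9 of NK cells, were also at 0. The summed 9 NK and innate lymphoid markers still stood at 46.2 against 7.43 CPM in the brain and 42.4 against 11.9 CPM in the spinal cord, and Eomes alone gave 42.8 and 32.8 CPM of the members' sums. The 4 regulatory T cell markers summed to 51.7 against 21.1 CPM and 37.3 against 17.7 CPM, of which Ikzf2 gave 50.4 and 32.5 CPM in members. The 7 gamma-delta T cell markers summed to 20.1 against 8.19 CPM in the brain, with a UMI in 3.61% of members. In the spinal cord they summed to 10.5 against 7.42 CPM, and 2 cells held 57.6% of the members' UMIs. Of these markers 2 were called higher and 1 lower in each library, among 4 tested in the brain and 5 in the spinal cord. The 11 myeloid markers summed to 15.9 against 8.86 CPM and 24.9 against 20.6 CPM, with Csf1r, Tmem119 and P2ry12 at 0 in members of both libraries. Of the 7 myeloid markers tested, 2 were called higher and 0 lower in each library. The CD8 T cell (6.28 and 8.29 CPM in members), NKT (1.85 and 5.10), dendritic (10.9 and 6.37), neutrophil (0.185 and 0.319) and central nervous system cell (44.0 and 64.1) lists stood at 5.21 and 6.52, 3.08 and 5.44, 15.6 and 16.6, 0.0956 and 0.147, and 51.4 and 76.6 CPM in the others, and the neutrophil list held 1 UMI in members of each library. The part of these cell types in the ratios that follow was not tested.

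Across all genes, the members differed from the other cells in a small share of the transcriptome. In the brain 503 of 12756 tested genes were higher (3.94%) and 566 lower (4.44%). In the spinal cord 498 of 12975 were higher (3.84%) and 542 lower (4.18%). Leaving out the 2 barcodes richest in each gene, from members and from others, moved these counts to 302 higher and 951 lower in the brain and 265 and 1000 in the spinal cord. Such a step takes a larger part of the members, the smaller set, here and in the single-gene ratios given without the 2 richest cells. Among genes tested in both libraries, 214 were called higher in both, which was 43.5% of the brain calls and 43.9% of the spinal cord calls. A further 241 were called lower in both, 42.7% and 44.6%. Over the 4698 genes at 20 CPM or more in both libraries the log2 ratios had a Pearson correlation of 0.80 across genes, given as a description, since genes are not independent and both ratios rest on the same rule.

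**Figure D2:**
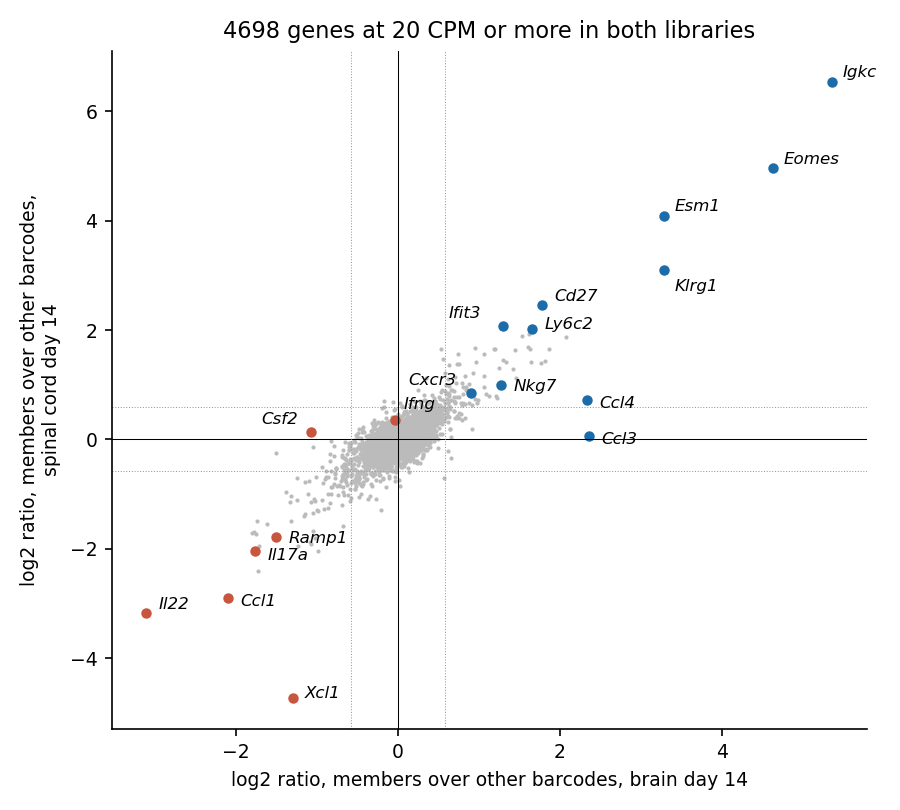
Each point is a gene at 20 CPM or more in both day 14 libraries, with its log2 ratio of members over other barcodes in the brain (horizontal axis) and the spinal cord (vertical axis). Named genes are coloured by the sign of the brain ratio, dotted lines mark 1.5-fold, and the 3 rule genes are left out. Igkc and Eomes lie farthest up in both tissues, Il22 and Ccl1 far down in both, and Xcl1, Ccl3, Ccl4 and Csf2 lie off the diagonal.

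Eomes, the T-box factor of cytotoxic and memory T cells, had far higher levels in the members. It stood at 42.8 CPM in brain members and 1.72 CPM in the other brain barcodes, a log2 ratio of 4.64 (4.25 to 5.04). In the spinal cord it stood at 32.8 and 1.05 CPM, a log2 ratio of 4.96 (4.46 to 5.48). Its detection was sparse, in 15.005% of brain and 13.7% of spinal cord members against 0.626% and 0.402% of the others, or 8.26% and 6.26% against 0.354% and 0.198% after thinning. Tbx21, which encodes the sister factor T-bet, was not called, at 17.0 against 14.7 CPM in the brain (log2 ratio 0.21, -0.12 to 0.53) and 25.5 against 22.1 CPM in the spinal cord (0.21, -0.14 to 0.54).

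Igkc, the constant region of the immunoglobulin kappa light chain and a gene usually linked to B cells, had a higher log2 ratio than any other gene at 20 CPM or more in the plot of both tissues. It stood at 132 against 3.20 CPM in the brain (5.37, 5.10 to 5.65) and at 92.1 against 0.988 CPM in the spinal cord (6.54, 6.09 to 7.02). Its UMIs were spread over 190 brain and 84 spinal cord members, and the richest 2 cells held 6.69% and 7.96% of them. B cell markers were close to absent, with 6 and 4 UMIs over the 5 markers in members, and only 1 brain and 0 spinal cord members had both Igkc and a B cell marker. Within the members Igkc was more often found beside Eomes. After thinning it was seen in 29.1% (19.4 to 40.4) of the 79 brain members with an Eomes UMI and 12.2% (10.1 to 14.6) of the 877 without, and in 31.4% (16.9 to 49.3) of 35 and 8.59% (6.33 to 11.3) of 524 in the spinal cord. The check for B cell markers and the co-detection were chosen after the Igkc values had been seen.

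The 14 cytotoxic effector genes outside the rule were higher or not called. In the brain 9 of 14 were called higher and 0 lower, with a median log2 ratio of 0.84 against 0.00 over all genes, and in the spinal cord 6 of 14 and 0, with a median of 0.59. Prf1, which encodes the pore-forming perforin, stood at 19.2 against 2.01 CPM in the brain (3.26, 2.83 to 3.69) and 21.0 against 2.86 CPM in the spinal cord (2.88, 2.43 to 3.31). Nkg7, a cytotoxic granule membrane protein, stood at 1373 against 566 CPM (1.28) and 1430 against 719 CPM (0.99). Serpinb6b, a protease inhibitor, stood at 142 against 53.1 CPM (1.42) and 134 against 55.1 CPM (1.28).

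Gzma, which encodes another granzyme, needs more care. It stood at 195 against 62.7 CPM in the brain (1.64, 1.53 to 1.74) and 168 against 53.2 CPM in the spinal cord (1.66, 1.52 to 1.79). A pair of cells held 48.2% of the brain members' Gzma UMIs and 44.3% of the spinal cord members', and without the 2 richest cells of each set the ratios were 0.92 and 1.19. Gzma UMIs were found in 11.1% of brain members and 8.60% of spinal cord members, against 2.62% and 1.82% of the others, or 8.05% and 5.19% against 1.82% and 1.19% after thinning. Granzyme genes are related in sequence, and how the authors' counting treated reads shared between them is not given in the sources used here.

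Among receptors of the NK type, Klrg1, an inhibitory receptor of terminal effector cells, stood at 28.1 against 2.87 CPM in the brain (3.29, 2.94 to 3.65) and 32.5 against 3.80 CPM in the spinal cord (3.09, 2.73 to 3.45). Slamf7, a receptor of the SLAM family, was also higher (1.12 and 0.79), while Cd160 was lower (-0.68 and -1.59) and Klrd1 was not called (0.54 and 0.54). Over the list 3 of 12 tested genes were higher and 2 lower in the brain, and 4 and 2 of 12 in the spinal cord, with medians of 0.20 and 0.05.

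Ly6c2, a surface protein of activated T cells and monocytes, was higher in both tissues without being specific to the members. It stood at 556 against 176 CPM in the brain (1.66, 1.60 to 1.72) and 510 against 126 CPM in the spinal cord (2.01, 1.93 to 2.09). After thinning it was seen in 36.3% of brain and 42.0% of spinal cord members against 14.3% and 12.4% of the others (46.5% and 50.9% against 18.8% and 18.5% unthinned). Its near-identical neighbour Ly6c1 went the other way, at 1.85 against 8.48 CPM (-2.20) and 0.637 against 4.06 CPM (-2.67, from 2 member UMIs), and the split of reads between the pair is uncertain. Cd27, a costimulatory receptor kept on less differentiated memory cells, stood at 108 against 31.3 CPM (1.78, 1.64 to 1.92) and 85.4 against 15.6 CPM (2.45, 2.25 to 2.66). Ly6c2 and Cd27 together were seen in 16.9% of brain and 14.0% of spinal cord members, against 2.24% and 1.34% of the others, or 7.64% and 4.47% against 0.866% and 0.455% after thinning.

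The rest of the memory and stem-like list divided. In the brain 2 of 13 genes were higher and 7 lower (median -0.77), and in the spinal cord 4 were higher and 3 lower (median -0.11). Il7r, the receptor of the survival cytokine interleukin 7, stood at 283 against 482 CPM in the brain (-0.77) and 360.4 against 514 CPM in the spinal cord (-0.51, not called). Tcf7, a transcription factor of self-renewing T cells, was called lower in the brain alone (-0.79, and -0.11 in the spinal cord). Satb1, a chromatin organiser of T cells, was lower in both (-1.02 and -0.68).

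Levels along the rule can be separated by sorting all day 14 barcodes into 4 sets, with or without a granzyme UMI and with Ccl5 at or above 2 or below. Eomes stood at 42.8, 9.49, 3.36 and 0.530 CPM in the brain across members, granzyme without Ccl5, Ccl5 without granzyme, and neither, and at 32.8, 4.37, 3.58 and 0.114 CPM in the spinal cord. Igkc stood at 132, 13.9, 6.27 and 1.33 CPM and at 92.1, 5.35, 1.45 and 0.597 CPM in the same order. Both genes were lower in each set that met only 1 side of the rule, and lowest in the set that met neither. Ly6c2 was graded instead, at 556, 376, 279 and 127 CPM in the brain and 510, 353, 160.3 and 103 CPM in the spinal cord. Nkg7 stood at 1373, 750.2, 907 and 449 CPM and at 1430, 874, 1056 and 611 CPM, so that Ccl5 without a granzyme came with more Nkg7 than a granzyme without Ccl5. Cd27 followed the granzyme, at 108, 44.5, 25.5 and 31.8 CPM in the brain and 85.4, 32.1, 15.4 and 14.7 CPM in the spinal cord. The 4 sets hold 1053, 501, 1823 and 6936 brain barcodes and 570, 358, 1793 and 6549 spinal cord barcodes.

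**Figure D3:**
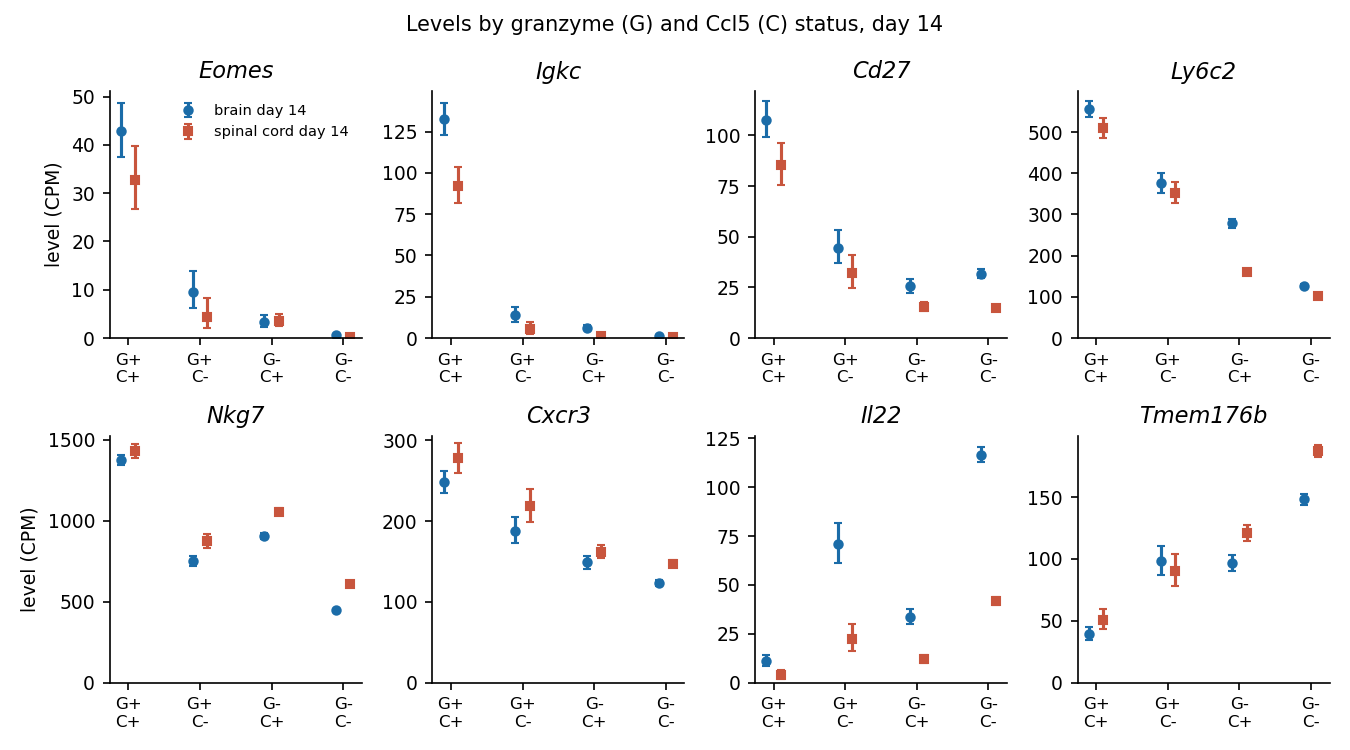
Level in CPM (vertical axes, from 0) of 8 genes in 4 sets of day 14 barcodes, with (G+) or without (G-) a granzyme UMI and with at least 2 (C+) or fewer (C-) Ccl5 UMIs, in brain (blue circles) and spinal cord (red squares). Bars are exact Poisson 95% intervals for counting error. Eomes and Igkc are highest in the G+C+ set by a wide margin, Ly6c2 and Cxcr3 step down across the sets, and Il22 and Tmem176b are lowest in G+C+.

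Genes that lie beside the rule genes on the chromosome were among the higher ones. Esm1, which encodes endocan, a proteoglycan best known from endothelium, lies on chromosome 13 at 113209659 to 113218104 (GRCm38.p6), 28.7 kb from Gzmk at 113171630 to 113180965, with Gzma 70.6 kb on the other side. Esm1 stood at 30.8 against 3.15 CPM in the brain (3.29, 2.95 to 3.63) and 28.4 against 1.66 CPM in the spinal cord (4.09, 3.64 to 4.55). Of the 4 other annotated genes within 100 kb of Gzmk, only Esm1 and Gzma had enough UMIs to be tested, and both were called higher in both libraries. Within 100 kb of Ccl5, Heatr9 lies 3.28 kb away and was called higher at low level, with 12 UMIs in members and 10 in the others in the brain (3.21, 1.88 to 4.58) and 8 against 8 in the spinal cord (3.92, 2.31 to 5.53). Of the 8 other annotated genes there 3 were tested, and 2 were called higher in the brain and 1 in the spinal cord, since 1700020L24Rik at 84.5 kb was higher in the brain (1.66, 53 member UMIs) and not called in the spinal cord (0.91). Taf15, 19.0 kb from Ccl5 and abundant, was not called (0.02 and 0.18). Near Gzmb, Gzmc at 17.2 kb was called higher in the brain (1.84) and not in the spinal cord (0.65). The neighbourhoods were examined after the Esm1 value had been seen, and these genes carry no independent weight.

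The 250 bases upstream of the Gzmk start are shown because Gzmk was found in most members and Eomes is a T-box factor. Sequences are from RefSeq (GRCm38.p6), 5′ to 3′ on the gene's strand, and capitals mark matches, on either strand, to GGTGTGA (the core of a T-box motif), an interferon response element (GAAA, any 2 bases, GAAA) or AGGTCA (the core bound by ROR factors). No 2 of these motifs overlapped in the stretches shown.

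Gzmk, chr13:113180966-113181215, minus strand: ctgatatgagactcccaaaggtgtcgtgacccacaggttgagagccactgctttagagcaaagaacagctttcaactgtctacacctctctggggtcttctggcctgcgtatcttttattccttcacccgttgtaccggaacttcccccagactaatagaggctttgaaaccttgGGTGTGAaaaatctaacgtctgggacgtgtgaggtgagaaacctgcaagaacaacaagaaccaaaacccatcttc

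Gzmk held 1 T-box match and no other, and the Gzmb stretch held none of the 3. Over 27025 promoters of this length 3.31% held a T-box match, and 0 of the 9 matched promoters among the 15 leading higher genes did. The motifs were chosen after the levels had been seen, and a match is a description, not a binding site.

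Chemokine receptor genes were called in both directions. Cxcr3, the receptor of interferon-induced chemokines on Th1-type cells, stood at 248 against 133 CPM in the brain (0.90) and 278 against 154 CPM in the spinal cord (0.85). Ccr6, the receptor of Th17 cells, and Ccr7, the lymph node homing receptor, were both lower, at -2.02 and -2.35 in the brain and -4.35 (from 1 member UMI, -9.66 to -1.87) and -1.30 in the spinal cord. Over the list 4 of 12 were higher and 4 lower in the brain, and 5 and 3 in the spinal cord. Cxcr6, a residency-linked receptor, was not called (-0.08 and -0.30).

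Chemokine ligands other than Ccl5 were uneven between cells and tissues. Ccl4, an inflammatory chemokine, stood at 371 against 73.4 CPM in the brain (2.34) and 146 against 87.9 CPM in the spinal cord (0.73). The richest 2 cells held 59.5% and 38.9% of the members' Ccl4, and without the 2 richest cells of each set the ratios were 1.23 and 0.22. Ccl1, a Ccr8 ligand, was lower in both, at 97.9 against 419 CPM (-2.10) and 94.0 against 696 CPM (-2.89). Xcl1, which attracts cross-presenting dendritic cells, was lower too, at 26.2 against 64.6 CPM (-1.30) and 3.51 against 92.8 CPM (-4.73). Over the list 2 of 6 tested genes were higher and 3 lower in the brain, and 2 and 3 of 8 in the spinal cord.

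Among adhesion genes, Itga4, the alpha chain of the VLA-4 integrin that T cells use to enter the central nervous system, was higher in the spinal cord more than in the brain. It stood at 210.0 against 124 CPM in the brain (0.76) and 451 against 173 CPM in the spinal cord (1.39). Its partner Itgb1 was not called (-0.41 and -0.14). Of 12 integrin genes 1 was higher in the brain and 2 in the spinal cord, and 0 were lower in either.

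Th17 genes were lower in both tissues. In the brain 0 of 14 tested genes were higher and 10 lower, with a median log2 ratio of -1.74, and in the spinal cord 0 of 15 and 11, with a median of -1.80. Il22, a cytokine acting on barrier tissues, stood at 11.1 against 95.8 CPM in the brain (-3.11, -3.50 to -2.74) and 3.82 against 34.6 CPM in the spinal cord (-3.18, -4.13 to -2.37). Il17a, the defining Th17 cytokine, stood at 58.4 against 198 CPM (-1.76) and 23.9 against 98.7 CPM (-2.05). Among members 2 cells held 39.9% of the Il17a UMIs in the brain and 52.0% in the spinal cord, and without the richest 2 cells of each set the ratios were -2.36 and -3.01. Il1r1, the interleukin 1 receptor, was lower (-1.73 and -2.40), as was Il17re (-1.62 and -1.54), a receptor chain for interleukin 17C. Il17f had 0 UMIs in spinal cord members, so that its ratio there was at or below -2.02 against the 3-count floor. Tmem176b stood at 39.7 against 134 CPM (-1.75) and 51.0 against 168 CPM (-1.72). Its neighbour Tmem176a behaved alike (-1.80 and -1.71), and the 250 bases upstream of the 2 genes overlap.

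Il17a, chr1:20730655-20730904, plus strand: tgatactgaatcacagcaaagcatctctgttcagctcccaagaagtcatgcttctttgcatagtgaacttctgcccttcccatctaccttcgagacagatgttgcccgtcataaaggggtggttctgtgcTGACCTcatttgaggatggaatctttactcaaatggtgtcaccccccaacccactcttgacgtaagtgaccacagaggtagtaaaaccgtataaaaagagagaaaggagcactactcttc

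The Il17a stretch is shown as the defining Th17 gene and held 1 AGGTCA match, read from the opposite strand. This motif was found in 13.8% of all promoters, in 5 of 12 matched Th17 list promoters and in 1 of 10 promoters of the leading lower genes.

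The Th1 list was mostly not called, with 2 of 16 genes higher and 1 lower in each library and medians of 0.12 in the brain and 0.20 in the spinal cord. Ifng, the Th1 cytokine, stood at 407 against 415 CPM in the brain (-0.03, -0.09 to 0.03) and 507 against 396 CPM in the spinal cord (0.36, 0.28 to 0.43). The spinal cord members' Ifng UMIs lay to 26.6% in 2 cells, and without the 2 richest cells of each set the ratio was -0.01. The share of cells with an Ifng UMI gave another picture, since 57.1% of brain members and 57.2% of spinal cord members had one, against 36.9% and 41.1% of the others. After thinning these shares were 38.9% (35.8 to 42.1) and 39.0% (34.9 to 43.2) against 27.2% (26.2 to 28.1) and 27.2% (26.3 to 28.1). Ifng was thus found in more of the members, while its summed level was near that of the others.

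The other effector cytokines were mostly lower, with 8 of 12 tested genes lower and 1 higher in the brain (median -0.93), and 4 of 11 lower and 1 higher in the spinal cord (median -0.47). The higher gene was Il10, which encodes a cytokine that restrains inflammation, at 14.96 against 1.98 CPM in the brain (2.92, 2.46 to 3.37) and 7.97 against 0.462 CPM in the spinal cord (4.11, 3.22 to 5.002). Few cells carried it, 5.41% of brain and 3.33% of spinal cord members against 0.475% and 0.103% of the others, or 2.72% and 1.79% against 0.317% and 0.0350% after thinning. Tnf, the inflammatory cytokine, stood at 54.1 against 85.8 CPM (-0.67) and 63.7 against 128 CPM (-1.01). Tnfsf8 and Lta, of the same family, were lower in both (-1.74 and -1.49, and -1.05 and -1.68), and so was Tnfsf11, the ligand RANKL (-1.77 and -1.68).

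Other leading genes included regulators of T cell state. Tox, a factor of chronically stimulated T cells, stood at 44.9 against 15.5 CPM in the brain (1.53) and 38.2 against 10.4 CPM in the spinal cord (1.88). Ikzf2 (Helios), an Ikaros family factor, stood at 50.4 against 16.6 CPM (1.60) and 32.5 against 10.1 CPM (1.68). Sh2d1a, the SLAM adaptor SAP, stood at 378 against 158 CPM (1.25) and 314 against 127 CPM (1.30). Entpd1, which encodes the ectonucleotidase CD39, stood at 25.5 against 7.48 CPM (1.77) and 43.0 against 16.4 CPM (1.40). St3gal6, a sialyltransferase (1.61 and 1.92), and Abcb9, a lysosomal peptide transporter (2.08 and 1.86), were also higher in both. So were Art2b, an ADP-ribosyltransferase (1.44 and 1.63), and Ctla2b, a protease inhibitor (1.64 and 1.42). Ctla2b may share reads with a close relative, which was not examined, so its level is uncertain. On the lower side, Ramp1, a subunit of the receptor for the neuropeptide CGRP, stood at 107 against 303 CPM (-1.50) and 113 against 387 CPM (-1.78).

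Genes induced by T cell receptor stimulation were lower or not called. In the brain 5 of 15 were lower (median -0.39) and in the spinal cord 10 of 15 (median -0.71), with 0 higher in either. Egr2 was lower (-1.48 and -2.39), as were Nr4a3 (-1.03 and -1.80) and Tnfrsf9, the costimulatory receptor 4-1BB (-0.87 and -0.99). The T cell receptor complex itself was level, with 0 of 11 genes called in either library and medians of 0.20 and 0.13. Cd4 was lower without a call, at 125 against 149.5 CPM (-0.26) and 173 against 237 CPM (-0.45).

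Receptor and adhesion lists divided within themselves. Of 12 inhibitory receptor genes 4 were higher and 4 lower in each library. Cd200 (-1.04 and -1.09) and Nt5e, the ectonucleotidase CD73 (-0.89 and -0.69), were lower in both, while Pdcd1, which encodes PD-1, was called higher in the brain (0.92) and not in the spinal cord (0.19). Of 13 costimulatory receptors, Cd27 was the 1 higher gene in each library, and 4 were lower in the brain and 3 in the spinal cord. Of 8 common gamma chain receptor genes 0 were higher and 4 were lower in the brain and 2 in the spinal cord, with Il2ra, the high-affinity interleukin 2 receptor chain, lower in both (-0.82 and -0.99). Of 9 genes associated with follicular helper T cells 4 were higher and 3 lower in the brain and 3 and 1 in the spinal cord, with Izumo1r higher (0.75 and 1.55) and Bcl6, the lineage factor, lower in both (-1.32 and -1.29).

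Residency and egress lists were lower where called, apart from Itga1, a collagen-binding integrin, in the spinal cord (1.31, and 0.50 in the brain). Of 17 residency genes 0 were higher and 5 lower in the brain, and 1 and 2 in the spinal cord. Of 8 egress genes 0 were higher and 2 lower in each library, Ccr7 among them. Of 8 genes of the Ly6 family with Plac8, 1 was higher and 2 lower in each. Of 15 immediate early genes 2 were higher and 5 lower in the brain and 0 were called in the spinal cord, and of 12 survival genes Bid, a pro-apoptotic BCL2 family gene, was the 1 called gene in each (0.83 and 1.51).

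Interferon-stimulated genes were higher, in the spinal cord more often than in the brain by count. In the brain 10 of 22 tested genes were higher and 0 lower (median 0.56), and in the spinal cord 18 of 22 and 1 (median 0.90). The lower gene was Oasl2, named after its value was seen, at 1.27 against 4.62 CPM. The member level lies near the 3-count floor of 0.956 CPM. Ifit3, an antiviral RNA-binding protein, stood at 76.5 against 31.1 CPM in the brain (1.30, 1.13 to 1.46) and 50.0 against 11.9 CPM in the spinal cord (2.07, 1.81 to 2.33). Isg15, a ubiquitin-like protein, stood at 153 against 99.5 CPM (0.63) and 107 against 41.4 CPM (1.37). The list took 0.464% of the members' UMIs against 0.319% of the others' in the brain, and 0.293% against 0.166% in the spinal cord, so its level was higher in brain members and its ratio higher in spinal cord members. The list of guanylate-binding and interferon gamma response genes had 5 of 17 higher in the brain and 4 of 17 in the spinal cord, with medians of 0.31 and 0.36.

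Ifit3, chr19:34583279-34583528, plus strand: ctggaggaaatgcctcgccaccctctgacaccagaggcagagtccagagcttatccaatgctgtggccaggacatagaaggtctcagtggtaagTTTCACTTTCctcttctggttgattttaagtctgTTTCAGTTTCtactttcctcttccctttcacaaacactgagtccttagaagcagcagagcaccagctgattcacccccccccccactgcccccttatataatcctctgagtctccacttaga

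The Ifit3 stretch is shown as the leading gene of that list and held 2 matches to the interferon response element, read from the opposite strand. The motif was found in 12 of the 17 matched promoters of the list (70.6%) against 3.04% of all promoters, and in 2 of 9 promoters of the leading higher genes, Eomes and Gzma. The list was assembled from genes known to respond to interferon, so that share describes the list and not the members.

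Cell division genes differed in the brain more than in the spinal cord by count. Of 18 G2 and mitosis genes 11 were higher and 0 lower in the brain (median 0.73), and 3 and 0 in the spinal cord (median 0.40). Birc5, which encodes survivin, stood at 94.7 against 51.6 CPM in the brain (0.88) and 40.5 against 25.5 CPM in the spinal cord (0.67), where 2 cells held 29.1% of it. Mki67 was not called (0.16 and 0.36). Members with UMIs of 2 or more G2 and mitosis genes were 9.31% (7.54 to 11.3) in the brain and 5.01% (3.35 to 7.16) in the spinal cord after thinning, against 5.92% (5.42 to 6.45) and 4.57% (4.14 to 5.04) of the others, and 17.5% and 16.5% against 11.9% and 15.03% unthinned. The S phase list had 0 of 18 called in the brain and 1 higher and 1 lower in the spinal cord. Oxidative phosphorylation genes had 0 of 22 called in either library, and glycolysis genes 2 and 5 of 15 lower with 0 higher.

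The antibody counts come from a separate library of the same cells and were not used by the rule. CD69, an early activation and residency protein, averaged 6.85 antibody UMIs per brain member (SD 10.2 over cells) against 8.42 (SD 13.5) in the others, and 12.6 (SD 21.6) against 21.4 (SD 86.3) in the spinal cord. The log2 ratios of means were -0.30 (-0.33 to -0.26) and -0.76 (-0.79 to -0.73). P2X7R, a receptor for extracellular ATP, averaged 5.85 against 8.12 in the brain (-0.48) and 11.02 against 16.96 in the spinal cord (-0.62). CXCR6 averaged 22.6 against 22.5 in the brain (0.00) and 22.9 against 28.9 in the spinal cord (-0.33). As a share of the 3 antibodies' UMIs, a scaling added after seeing the data, CXCR6 was higher in members, 64.0% against 57.6% in the brain and 49.2% against 43.0% in the spinal cord. The direction of CXCR6 in the spinal cord therefore depends on the scaling, with a log2 ratio of 0.20 for the share. The 3 shares make up a fixed total, so the CXCR6 share had to rise where CD69 and P2X7R were lowered more than CXCR6. It is no separate measure of CXCR6. Medians for CD69, P2X7R and CXCR6 were 4 against 4, 4 against 5 and 12 against 14 UMIs in the brain. In the spinal cord they were 7 against 10, 5 against 9 and 15 against 23. For CXCR6 the medians lay further apart than the means in both tissues.

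**Figure D4:**
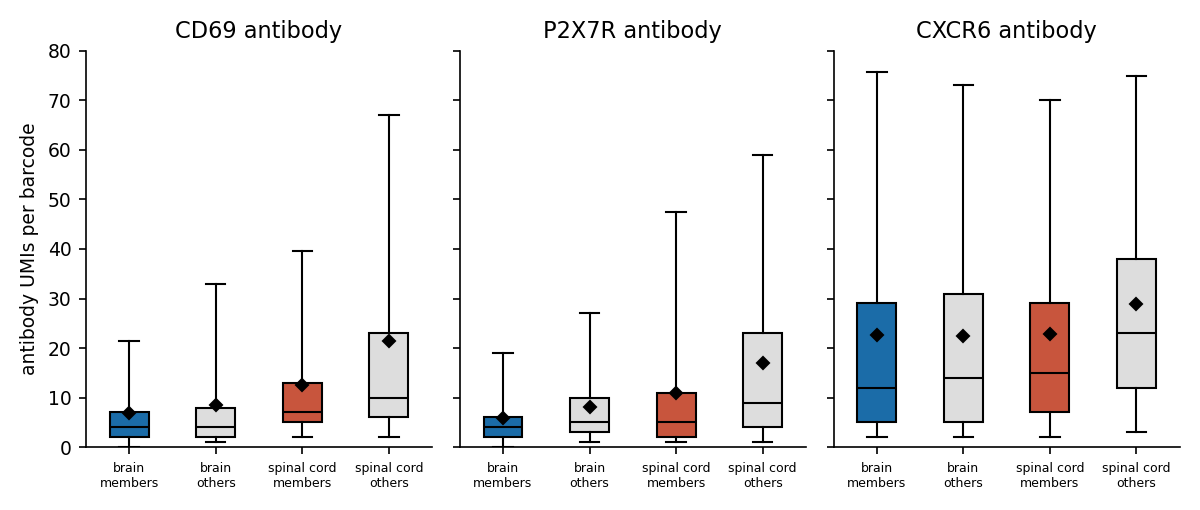
Antibody UMIs per barcode (vertical axis, linear) for 3 surface proteins in members (coloured) and other barcodes (grey) of the day 14 libraries. Boxes span the quartiles with the median as a line, whiskers reach the lowest and highest 5% of cells, and diamonds are means. CD69 and P2X7R medians in spinal cord members (7 and 5) lie below those of the others (10 and 9).

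The deposited feature table gives the P2X7R antibody the name CD3 and the CXCR6 antibody the name CD16 beside identifiers that read P2X7R and CXCR6. The identifiers were used, since the brain median was 11 UMIs in barcodes with a P2rx7 transcript against 4 without, and 22 with a Cxcr6 transcript against 6 without. The transcripts of the 3 proteins were lower or not called, with log2 ratios of -0.24 and -0.06 for Cd69, -0.79 (called) and -0.30 for P2rx7, and -0.08 and -0.30 for Cxcr6.

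The members were not uniform. In the brain 489 carried Gzmk alone, 267 Gzmb alone and 297 both, and in the spinal cord 293, 149 and 128. Comparing members with Gzmk alone against those with Gzmb alone, 260 of 9327 tested genes were higher in the Gzmk cells (2.79%) and 282 lower (3.02%) in the brain, and 246 of 8840 (2.78%) and 332 (3.76%) in the spinal cord. Median depth was 4063 UMIs in Gzmk-only and 4371 in Gzmb-only brain members, and 4129 and 5367 in the spinal cord. The median Ccl5 count was 23 UMIs in Gzmk-only and 13 in Gzmb-only brain members, and 25 and 10 in the spinal cord. The part of depth and of the Ccl5 level in the split was not tested.

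Igkc, Eomes and Esm1 were higher on the Gzmk side, while Klrg1 was not called between the sides (0.58, -0.10 to 1.29, and 0.45, -0.38 to 1.34) and Prf1 was called in the spinal cord (1.49, 0.29 to 2.92) and not in the brain (0.64, -0.32 to 1.69). Igkc stood at 180.2 CPM in Gzmk-only and 16.2 CPM in Gzmb-only brain members (log2 ratio 3.48, 2.87 to 4.15), and at 134 and 3.29 CPM in the spinal cord (5.35, 3.79 to 7.64, with 3 UMIs in Gzmb-only cells). Eomes stood at 64.8 and 5.62 CPM (3.53, 2.51 to 4.77) and 48.6 and 4.38 CPM (3.47, 2.05 to 5.39). Esm1 stood at 44.5 and 4.92 CPM (3.18) and 33.1 and 3.29 CPM (3.33). Tox (1.91 and 1.98), Cd27 (1.09 and 1.33) and Sh2d1a (1.08 and 0.93) were higher on the Gzmk side as well. Members with both granzymes resembled the Gzmk-only cells in these genes by level, with Eomes at 44.1 and 36.2 CPM and Igkc at 165 and 117 CPM. Of the memory and stem-like list, 6 of 13 genes were higher and 1 lower in Gzmk-only cells of the brain (median 0.63), and 6 and 0 of 11 in the spinal cord (median 0.79).

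Of the effector cytokines, 5 of 9 tested genes were higher in Gzmb-only cells and 1 in Gzmk-only cells of the brain, and 4 and 0 of 10 in the spinal cord, with much of the level in few cells. Il17a stood at 14.7 CPM in Gzmk-only and 155 CPM in Gzmb-only brain members (-3.40), and at 5.404 and 42.7 CPM in the spinal cord (-2.98), where 2 cells held 57.0% and 53.8% of the Gzmb-only UMIs. Csf2, which encodes the cytokine GM-CSF, stood at 15.99 and 51.99 CPM (-1.70) and 8.11 and 171 CPM (-4.40), with 75.7% and 84.0% of the Gzmb-only UMIs in 2 cells. The share of cells was less extreme, with Il17a in 1.37% of Gzmk-only and 4.98% of Gzmb-only brain members after thinning (0.505 to 2.96 and 2.60 to 8.54), and in 0.707% and 3.38% in the spinal cord (0.0857 to 2.53 and 1.11 to 7.71), with overlapping intervals. Ifng was lower in Gzmk-only cells, at 364 and 587 CPM (-0.69) and 363 and 902 CPM (-1.31), with 51.4% of the spinal cord Gzmb-only UMIs in 2 cells. The share of cells with an Ifng UMI after thinning was close on both sides, 36.8% (32.3 to 41.6) and 39.4% (33.2 to 45.9) in the brain and 36.4% (30.8 to 42.3) and 41.9% (33.8 to 50.3) in the spinal cord.

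More evenly spread were Ifitm2, an interferon-induced membrane protein (-1.39 and -1.34), 1500009L16Rik (-1.48 and -2.07) and AA467197 (-1.11 and -1.16), all higher in Gzmb-only cells. Ifitm1 was also higher there (-1.31 and -1.48), with 61.0% and 60.0% of the Gzmb-only UMIs in 2 cells. Of 15 migratory cytoskeleton genes, 9 in the brain and 12 in the spinal cord were higher in Gzmb-only cells and 0 in Gzmk-only cells, with medians of -0.71 and -0.86 against 0.00 and -0.02 over all genes. Within that list Lgals3, which encodes galectin 3, stood at 232 and 613 CPM in Gzmk-only and Gzmb-only brain members (-1.40) and 286 and 529 CPM in the spinal cord (-0.89). For Lgals3 the members with both granzymes lay nearer the Gzmb-only cells. After thinning it was seen in 45.0% of them in the brain and 47.7% in the spinal cord. The shares were 49.0% and 50.0% of Gzmb-only and 27.7% and 32.5% of Gzmk-only members. Vimentin (Vim), an intermediate filament of motile cells named after its value was seen, stood at 714 and 1368 CPM (-0.94) and 848 and 1680 CPM (-0.99). Ly6c2 was not called between the sides (0.10 and -0.32), nor were Cxcr3 (0.00 and 0.28) and Nkg7 (0.33 and 0.05). By share of cells Ly6c2 was more frequent on the Gzmb side. After thinning it was seen in 30.9% (26.6 to 35.5) of Gzmk-only and 41.9% (35.6 to 48.4) of Gzmb-only brain members. In the spinal cord the shares were 37.8% (32.1 to 43.7) and 48.0% (39.7 to 56.3), with overlapping intervals.

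**Figure D5:**
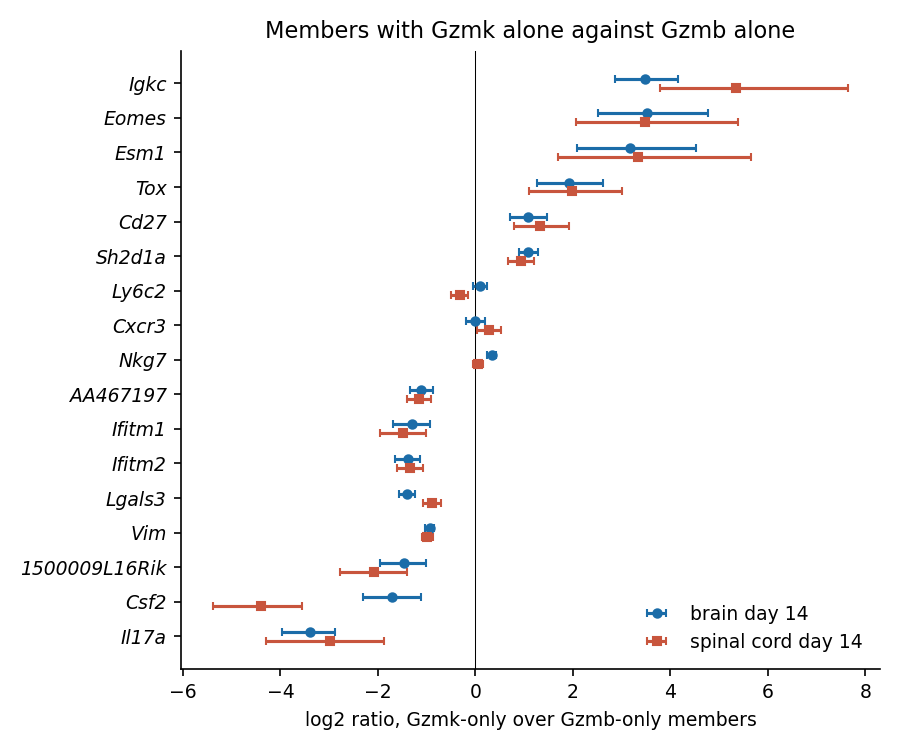
log2 ratio (horizontal axis) of Gzmk-only over Gzmb-only members for 17 genes (vertical axis), in the brain (blue circles) and the spinal cord (red squares) at day 14, with exact 95% intervals for counting error. Igkc, Eomes and Esm1 lie above 3 in both tissues, Ly6c2, Cxcr3 and Nkg7 near 0, and Il17a near -3.

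Members of the brain and the spinal cord were compared beside the other cells of the same libraries. In members the median gene was 0.18 higher on the log2 scale in the spinal cord than in the brain, and in the others 0.20, so that 1384 of 10576 genes were higher in spinal cord members (13.1%) and 232 lower (2.19%), and 2000 of 13711 (14.6%) and 491 (3.58%) in the others. The tissues are therefore compared through the difference of the members' log2 ratios, spinal cord minus brain. By that measure 258 of 11894 genes were higher in the spinal cord (2.17%) and 207 lower (1.74%), with an approximate interval from counting error. Xcl1 had a difference of -3.43 (-4.31 to -2.54), Ccl3, an inflammatory chemokine, -2.29 (-2.61 to -1.97) and Ccl4 -1.61 (-1.77 to -1.45). Of 5 tested chemokine ligands 4 were lower in the spinal cord by this measure and 1 higher. Few cells carried them: 2 cells held 59.5% of the brain members' Ccl4 UMIs, and Xcl1 rested on 11 UMIs in spinal cord members, 63.6% of them in 2 cells, with 37.3% in 2 cells in the brain. Ccl3 stood at 114 CPM in brain members and 33.5 CPM in spinal cord members against 22.2 and 31.9 CPM in the others, and 2 cells held 64.9% of the brain members' UMIs. Nr4a2, a nuclear receptor of stimulated T cells, had a difference of -1.28, from 63.7 and 20.4 CPM in members against 43.0 and 33.3 CPM in the others. Tuba1c had a difference of -1.01. Nrgn had -1.05, but it was lower in members in both tissues (-0.99 and -2.04), at 174 and 139 CPM in members and 345 and 569 CPM in the others, so the difference lay mostly in the other cells.

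Itga4 was higher on the spinal cord side (0.63, 0.51 to 0.75), and so was Itga1 (0.81, 0.26 to 1.36). Csf2 was on that side too (1.21, 0.88 to 1.55), with 69.3% of the spinal cord members' UMIs in 2 cells, as was Il2 (1.26), with 84.4%. Ifit1 (1.12) and Isg15 (0.74), both interferon-stimulated, were on the same side. Ifit1 stood at 68.7 CPM in brain members and 61.2 CPM in spinal cord members, and at 47.5 and 19.5 CPM in the others, so the difference lay mostly in the other cells. The same held for Igkc (1.17), at 132 and 92.1 CPM in members and 3.20 and 0.988 CPM in the others. Klf3, a Krüppel-like factor, had a difference of 0.93, from 38.8 and 55.1 CPM in members and 26.4 and 19.8 CPM in the others.

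Cells that met the same rule in the chronic phase mostly carried Gzmk without Gzmb. Both genes belong to the rule, so their shares and levels are given as a description and are no finding. The shares were not thinned. Median depth of the cells of the rule was 2987 and 3092 UMIs in brain and spinal cord at day 50, against 4307 and 4578 at day 14. At day 50, 53 of the 56 brain cells and 358 of the 403 spinal cord cells had Gzmk alone, 94.6% and 88.8%, against 46.4% and 51.4% at day 14. Gzmk stood at 698 and 722 CPM and Gzmb at 73.2 and 69.7 CPM in brain and spinal cord, which were 415, 369, 347 and 295 CPM at day 14. Comparing these cells with the day 14 members, 398 of 9954 genes were higher (4%) and 438 lower (4.4%) in the brain. In the spinal cord 515 of 9787 were higher (5.26%) and 2007 lower (20.5%), with a median log2 change of -0.31 over all genes. Relative to that median 1098 were higher and 937 lower, and the log2 changes given for the spinal cord include that shift. Against the other day 50 cells of their own library, 292 of 6918 genes were higher (4.22%) and 224 lower (3.24%) in the brain, and 490 of 10011 (4.89%) and 491 (4.9%) in the spinal cord.

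Ly6c2 did not keep its place. At day 50 it stood at 118 CPM in brain and 116 CPM in spinal cord cells of the rule, against 556 and 510 CPM at day 14 (-2.23, -2.93 to -1.62, and -2.13, -2.38 to -1.89). The brain value rests on 21 UMIs, of which 2 cells held 52.4%. Against the other day 50 cells it was not called, at 118 against 102 CPM (0.21, -0.54 to 0.90) and 116 against 162 CPM (-0.47, -0.73 to -0.22). Gzma had 0 UMIs in the brain cells of the rule at day 50, which allows up to 16.9 CPM. In the spinal cord it stood at 3.71 CPM, against 195 and 168 CPM in brain and spinal cord at day 14. Gzma was lower at day 50 in the other cells too, at 6.998 and 6.979 CPM against 62.7 and 53.2 CPM at day 14. Between the cells of the rule and the others at day 50 it was not tested in the brain. In the spinal cord it was not called (-0.91, -2.63 to 0.45). S100a4 is a calcium-binding protein of motile cells. In the cells of the rule it stood at 417 and 559 CPM against 2614 and 3031 CPM at day 14 (-2.65 and -2.44). AA467197 and Ifitm2, which marked the Gzmb side, had 0 UMIs in the brain cells and 15.6 and 20.7 CPM in the spinal cord cells of day 50.

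Eomes and Igkc kept theirs. Eomes stood at 259 and 132 CPM at day 50 against 42.8 and 32.8 CPM at day 14 (2.60 and 2.01), and over the other day 50 cells its log2 ratios were 4.85 (3.80 to 6.06) and 4.48 (3.90 to 5.11). Igkc stood at 146 and 201 CPM, with ratios over the other cells of 4.87 and 5.72, and Esm1 had ratios of 4.66 and 4.76. Cd27 was higher than in the other cells (1.43 and 1.37) and so was Nkg7 (2.27 and 1.71). Ccl4 stood at 1577 and 348 CPM against 371 and 146 CPM (2.09 and 1.26), with 32.9% and 28.7% of the day 50 UMIs in 2 cells. Further genes higher at day 50 were Xcl1 (3.03 and 6.33), Ier5l, an immediate early gene (4.14 and 4.78), and Nr4a2 (2.25 and 2.81). The spinal cord change of Xcl1 starts from 3.51 CPM in members at day 14. Over the other day 50 cells Xcl1 was higher in the brain (1.68) and not called in the spinal cord (0.22, 282 against 242 CPM). Ier5l (1.34 and 0.94) and Nr4a2 (2.16 and 1.03) were higher than in the other day 50 cells in both tissues. The brain values at day 50 rest on 56 cells and 177554 UMIs.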

How the data were processed

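Each library was deposited as a matrix of raw counts, UMIs per gene and per antibody for each cell barcode, made by the authors with Cell Ranger 6.1.1 on mm10, per the submitters' processing notes; the kit was a 3′ droplet kit, per the labels' protocols. Counts of kept barcodes were summed over members and over others and scaled to CPM. Depth was 47272714 and 50710551 RNA UMIs in brain and spinal cord at day 14, and 1177903 and 6078142 at day 50. Ratios carry exact conditional binomial 95% intervals, levels exact Poisson intervals and shares exact Clopper-Pearson intervals. A gene was tested with at least 10 UMIs over both sets. Against a set with 0 UMIs a ratio uses 3 counts, and is set to 0 where that exceeds the other set, a choice made after seeing the data. No test between groups was run, since each group is 1 library.

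The members and all 27 gene lists were chosen with earlier results of these data known. Named genes are Ccl5, Gzmk, Gzmb, Ly6c2, Cd27 and 17 other genes of interest, the 15 higher and 10 lower genes at 20 CPM or more whose interval lies farthest from 0 in the library where it lies nearer, at most 4 genes per list ranked likewise, and 6 genes on each side of the granzyme comparison. The comparison of tissues, the day 50 comparison (6 genes each way in both), the 4 sets, the shares of cells, the chromosomal neighbours and the promoter motifs were added after the files had been seen, as were the other genes named within their lists. Gene positions and promoters were taken from RefSeq (GRCm38.p6) by symbol, and the promoter table had entries for 9 of the 15 leading higher genes and 10 of the 10 leading lower genes. Alternatives were depth-weighted others, subtraction of the median, no minimum, a stricter rule (Ccl5 at least 4, granzymes at least 2), members chosen after thinning, leaving out barcodes above 3 times the median depth, cycling barcodes or the 2 richest barcodes per gene, at most 5% mitochondrial UMIs, and the share of the 3 antibodies. The counting code was tested on simulated data, where the pass limit for interval coverage was relaxed after a first run had failed it. Python 3.11.15, numpy 2.4.6, scipy 1.17.1 and pandas 2.3.3 were used. Some genes are not reported here.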

Additional observations from a re-analysis of the deposited data

Results flagged for a closer look

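Of 12511 genes tested in both libraries, 40 had intervals on opposite sides of 0 in the brain and the spinal cord, and 37 of these were not called in both. The difference between the tissues was not tested over replicates for any of them, since each tissue is 1 library. Among them 3 genes were called in opposite directions. Serpine2, a protease inhibitor, had a log2 ratio of 1.03 in the brain and -2.89 in the spinal cord, the latter from 4 member UMIs. Mtrf1, a mitochondrial translation release factor, had 0.72 and -1.50, also from 4 member UMIs in the spinal cord. Gm16196 had -0.66 in the brain, from 25 member UMIs, and 0.92 in the spinal cord, from 31.

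Among the genes of the lists and comparisons described, 6 more had such intervals. Nr4a2, a nuclear receptor of stimulated T cells, had 0.57 in the brain (0.40 to 0.74), which was not called, and -0.71 in the spinal cord (-1.09 to -0.35), which was. The other 5 passed 1.5-fold in neither library. Klf2, a transcription factor of recirculating T cells, had -0.48 (-0.56 to -0.40) and 0.20 (0.06 to 0.33), and S1pr1, the egress receptor, had -0.29 and 0.35. Myc had -0.39 and 0.41, Dut 0.097 and -0.21, and Gapdh 0.081 and -0.14.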

How the results depend on the processing

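No paired analysis was possible because a lone library stands for every tissue and day. Over the alternatives, single named genes were recomputed 702 times: 558 values moved by less than their counting interval, 144 by more, 685 kept the direction and 0 called values changed sign. Leaving out the 2 barcodes richest in each gene took the genes called higher to 302 in the brain and 265 in the spinal cord and those called lower to 951 and 1000; the same number of cells is a larger part of the smaller set, here the members. In the granzyme comparison, where the Gzmb-only set is smaller, this raised the genes higher in Gzmk-only cells to 397 and 375. The share of members was 6.15% and 3.64% under the stricter rule, 6.55% and 3.54% after thinning, and 9.62% in the brain without cycling barcodes. Antibody log2 ratios, in the order CD69, P2X7R and CXCR6, were in the brain -0.43, -0.58 and -0.10 with depth-weighted others, -0.41, -0.65 and -0.12 under the stricter rule, -0.61, -0.82 and -0.27 after thinning, -0.37, -0.58 and -0.11 without deep barcodes, and -0.15, -0.33 and 0.15 as shares of the 3 antibodies. Without cycling barcodes P2X7R was -0.59 and CXCR6 -0.032, and without the 2 richest barcodes CD69 was -0.33 and CXCR6 -0.026. In the spinal cord they were -0.87, -0.99 and -0.49 under the stricter rule, -1.09, -1.05 and -0.56 after thinning, -0.96, -0.70 and -0.42 without cycling barcodes, and -0.23, -0.093 and 0.20 as shares, where CXCR6 changed sign. P2X7R was -0.67 there without deep barcodes, and without the 2 richest barcodes P2X7R was -0.67 and CXCR6 -0.37. The share of the 3 antibodies was chosen after seeing the data; for the antibody shifts the cause was not tested. With 56 cells, the brain library of day 50 limits what can be detected there.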
